A study of Mus musculus with 14 samples.

Results

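Tumours from mice given cyclophosphamide at 140 mg/kg were compared with tumours from mice given saline, across all genes that passed a filter on low counts. The comparison uses 9 of the 14 RNA-seq libraries of the series: 4 from saline (PBS 1 to 4) and 5 from the higher dose (CTX140 1 to 5), each placed in its group by its treatment label. The other 5 libraries, from a 100 mg/kg group (CTX100), also entered the filter, the scaling and the fit. In the fit they share in the estimate of the spread. All tumours grew from 4T1, an established mouse mammary carcinoma line used as a model of triple-negative breast cancer, after 1000000 cells were placed in the mammary area. Mice received PBS or drug into the peritoneum from day 9, once tumours reached roughly 100 mm3, in 3 cycles spaced 6 days apart, and tumours were taken 3 days after the last. Strain, sex and age are not stated in the labels. The labels do not tie each library to its own animal, so the p-values speak only for the variation among these libraries, which may be technical.

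Cyclophosphamide is a prodrug. The liver oxidises it, and a breakdown product alkylates DNA and links its strands, which blocks replication in dividing cells, tumour and bone marrow cells alike. Aldehyde dehydrogenases and glutathione conjugation detoxify its intermediates. DNA damage is known to activate p53 and, where DNA or RNA reaches sensors in the cytosol, type I interferon, whose receptor drives genes that carry an interferon-stimulated response element in their promoters. A whole tumour also holds fibroblasts, fat, vessels and leukocytes, so its RNA mixes many cell types, and in such bulk samples fewer cells of a type and less RNA per cell cannot be told apart.

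Library totals were 15196980 to 17095798 counts in PBS and 14423875 to 18837891 in CTX140. CPM stands for counts per 1000000 after TMM scaling, and the level of a gene list in a library is the mean log2 CPM of its tested members. Between pairs of libraries, correlations of log2 CPM across genes were 0.967 to 0.978 within PBS, 0.926 to 0.979 within CTX140 and 0.904 to 0.961 between the groups. The first principal component, the axis of largest spread in log2 CPM among the 9 libraries, held 46.7% of the variance. On it PBS 1 to 4 lay at -21.0, -49.0, -58.8 and -61.0. CTX140 1 to 5 lay at 75.9, 58.3, 33.4, 13.5 and 8.76, falling in the order of their numbers. Of the 5 CTX140 libraries, CTX140 1 held the highest value in 585 of the 1711 genes called higher and CTX140 2 in 518, against 279 in CTX140 5, 195 in CTX140 4 and 134 in CTX140 3. PBS 1 and CTX140 1 carried more B cell transcripts than the others, with list levels of 4.27 and 4.99 against -0.08 to 1.27 in the other 7 libraries. The share of counts on mitochondrially encoded genes was 4.72 ± 1.02% in PBS (SD, n = 4) and 6.02 ± 2.23% in CTX140 (n = 5), a difference of 1.30 percentage points (two-sided exact permutation p = 0.381; the smallest p this design allows is 0.00794). Without CTX140 1 the difference was 0.352 percentage points. The simple keratins of 4T1, Krt8 and Krt18, were abundant in every library: Krt8 stood at 893, 1169, 752 and 831 CPM in PBS 1 to 4 and 917, 692, 954, 921 and 895 CPM in CTX140 1 to 5. Esr1, which encodes the oestrogen receptor, stood at 7.99 to 16.1 CPM in PBS and 7.98 to 23.2 CPM in CTX140. The leukocyte marker Ptprc stood at 101 to 151 CPM in PBS and 69.7 to 309 CPM in CTX140.

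Of 15360 genes tested, 3268 (21.3%) were called at an edgeR adjusted p under 0.05, 1711 (11.1%) higher and 1557 (10.1%) lower in CTX140. In 1128 genes (7.34%) every CTX140 library lay above every PBS library, and in 1061 (6.91%) every one lay below; these are referred to as genes whose groups did not overlap. The counts in each direction were close, but the sizes were not: 1117 called genes were higher by at least 2-fold and 182 lower, and 485 were higher by at least 4-fold against 5 lower. The median log2 fold change was 1.38 among genes called higher and -0.58 among genes called lower, against 0.02 over all genes tested. Each log2 fold change below is the fitted difference CTX140 minus PBS with its standard error (SE). Fewer genes were called without either of the last saline libraries: 1975 genes were called without PBS 3 and 1992 without PBS 4. With only the 9 compared libraries filtered, scaled and fitted, 1878 genes were called.

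Among the 12 genes with the smallest p, 10 rose. They were Hp, which encodes the haemoglobin scavenger haptoglobin, Reg3g, an antimicrobial lectin, the matrix genes Abi3bp, Svep1 and Nov, the matrix protease gene Adamts5, the serpin gene Serpinf1, and the interferon-induced Ifit3b, Ifit3 and Mx1. Hp (ENSMUSG00000031722, chromosome 8, 109575128 to 109579172 on mm10) stood at 54.5, 49.5, 40.6 and 23.4 CPM in PBS 1 to 4 and 176, 229, 189, 216 and 197 CPM in CTX140 1 to 5. All 5 treated libraries lay close together and far above the highest saline library, a log2 fold change of 2.26 ± 0.20 (adjusted p = 2.89e-05). Svep1, a large adhesion protein of connective tissue, stood at 1.45, 1.57, 2.45 and 2.75 CPM in PBS 1 to 4 and 15, 26.9, 18.5, 21.3 and 10.7 CPM in CTX140 1 to 5, with no overlap and a log2 fold change of 3.16 ± 0.30 (adjusted p = 2.89e-05). Reg3g was at 0 in 3 saline libraries and at 0.140 CPM in PBS 3, and at 4.49, 11.2, 18.5, 6.35 and 6.37 CPM in CTX140 1 to 5. The 12 rising genes with the largest fold changes among those that averaged 10 CPM or more were Ccl17, Clec3b, Cited1, Car3, Efemp1, Ptn, Cfd, Fgb, Dpt, Serpina3n, Apod and Cxcl12, with log2 fold changes from 6.20 ± 1.02 for Ccl17 to 4.21 ± 0.61 for Cxcl12. Among them are genes of fibroblasts (Clec3b, Dpt), of fat (Car3, Cfd, which encodes adipsin) and the lipid carrier Apod, which stood at 2.53, 1.64, 1.96 and 0.769 CPM in PBS 1 to 4 and 68.7, 40.9, 29.3, 17 and 17 CPM in CTX140 1 to 5. Some calls did not stand in every fit with 1 library left out; for these the highest adjusted p over such fits and the libraries whose omission ended the call are given in parentheses, here Ptn (adjusted p up to 0.0568, without PBS 3, PBS 4) and Fgb (adjusted p up to 0.0608, without PBS 3, PBS 4).

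Arhgap18 and Hoxa5 fell with the smallest p among lower genes. Arhgap18 (ENSMUSG00000039031, chromosome 10, 26753421 to 26918648 on mm10), a GTPase-activating protein, stood at 104, 115, 141 and 134 CPM in PBS 1 to 4 and 53.7, 61.7, 57.9, 46.9 and 51.5 CPM in CTX140 1 to 5, a log2 fold change of -1.18 ± 0.11 (adjusted p = 2.89e-05). Hoxa5, a homeobox factor, stood at 155, 200.3, 194 and 192 CPM in PBS 1 to 4 and 78.4, 73, 92.5, 87 and 89.9 CPM in CTX140 1 to 5 and fell by 1.14 ± 0.11 (adjusted p = 3.86e-05). In both genes the treated libraries were tightly grouped below every saline library. Sema4c, a semaphorin, stood at 73.2 to 95.4 CPM in PBS and 20.2 to 39.1 CPM in CTX140 and fell by 1.61 ± 0.18 (adjusted p = 7.47e-05). Other strongly lower genes that averaged 10 CPM or more included Ibsp, Cx3cr1, Npnt, Nptx1, Cyp51, Trp53i11, Il17rd, Insig1 and Bmp7, with log2 fold changes of -2.52 to -1.60. Among them Cyp51 and Insig1 belong to cholesterol synthesis and its feedback, and Ibsp, Npnt and Bmp7 to mineralised matrix and its signals.

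Genes of the interferon response rose among sensors, transducers and effectors. Among the sensors of nucleic acid and their adaptors, in the cytosol and in endosomes, 7 of 19 tested members were called higher and 0 lower, with a median log2 fold change of 0.28. Zbp1, which binds Z-form nucleic acid, stood at 134, 127, 81.5 and 105 CPM in PBS 1 to 4 and 190.2, 296, 246, 232 and 286 CPM in CTX140 1 to 5; the groups did not overlap and the log2 fold change was 1.16 ± 0.16 (adjusted p = 0.000291). The RNA helicase sensors Ddx58, Ifih1 and Dhx58 rose by 0.86 ± 0.16, 0.91 ± 0.20 and 1.09 ± 0.18 (adjusted p = 0.00188, 0.00538 and 0.000923). Tmem173, the adaptor STING of the DNA sensor cGAS, was not called, at 58.4 ± 8.54 CPM in PBS and 61.1 ± 11.5 CPM in CTX140 (SD; log2 fold change 0.06 ± 0.16).

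The receptors and transducers of interferon signalling moved unevenly. Of 20 tested, 6 were called higher and 1 lower (0 without PBS 2 or PBS 3 or CTX140 1 or CTX140 2 or CTX140 3 or CTX140 5). Irf7 (ENSMUSG00000025498, chromosome 7, 141262706 to 141266481 on mm10), the factor that amplifies type I interferon output, stood at 187, 152, 88.3 and 97.5 CPM in PBS 1 to 4 and 380.0, 475, 392, 388 and 508 CPM in CTX140 1 to 5; every treated library lay above every saline one, and the log2 fold change was 1.71 ± 0.20 (adjusted p = 0.000108). Both feedback inhibitors Usp18 and Socs1 rose, by 1.60 ± 0.25 and 1.19 ± 0.23 (adjusted p = 0.000809 and 0.00242), and Stat2 rose by 0.82 ± 0.17 (adjusted p = 0.00305). Irf9, which joins Stat2 in a transcription complex, stood at 84.6 ± 6.37 CPM in PBS and 99.4 ± 10.1 CPM in CTX140 and was not called (log2 fold change 0.23 ± 0.10, adjusted p = 0.0998). The kinase gene Jak1 was at 177 ± 18 CPM in PBS and 167 ± 39 CPM in CTX140, also not called. Calls lost with a library left out were Irf1 (adjusted p up to 0.0617, without PBS 3), Irf8 (adjusted p up to 0.0713, without PBS 3, PBS 4) and, in the lower direction, Jak2 (adjusted p up to 0.102, without PBS 2, PBS 3, CTX140 1, CTX140 2, CTX140 3, CTX140 5).

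Antiviral effectors, the proteins that block viral RNA and its translation, rose in nearly all members. Of 25 tested, 23 were called higher and 0 lower, 21 had groups that did not overlap, and the median log2 fold change was 1.49; with 1 library left out at a time, 22 to 24 members were called. Ifit3 (ENSMUSG00000074896, chromosome 19, 34583531 to 34588731 on mm10) stood at 33.2, 27.2, 16.5 and 22.2 CPM in PBS 1 to 4 and 85.6, 94.8, 104, 84.2 and 139 CPM in CTX140 1 to 5, a log2 fold change of 2.04 ± 0.21 (adjusted p = 4.01e-05). Mx1, a GTPase that traps viral capsids, stood at 13.1, 9.84, 5.59 and 7.63 CPM in PBS 1 to 4 and 36, 29.2, 41.6, 31.2 and 46.1 CPM in CTX140 1 to 5. In both genes every treated library lay well above every saline one. Rsad2, the antiviral enzyme viperin, rose by 2.29 ± 0.35 (adjusted p = 0.000744), and Isg15, a ubiquitin-like modifier, by 1.74 ± 0.36 (adjusted p = 0.00487). The synthetase genes Oas1a, Oas1g, Oas2 and Oas3, whose product activates RNase L, rose by 1.21 to 1.54. Several of these genes are near-copies of a neighbour (Ifit3 and Ifit3b, Oas1a and Oas1g), and how shared reads were assigned is not stated. The level of the list was 5.54, 5.37, 4.75 and 4.97 in PBS 1 to 4 and 6.42, 6.48, 6.75, 6.45 and 6.92 in CTX140 1 to 5, with the 5 treated libraries close together and above the 4 saline ones. The call of Ifi27l2a (adjusted p up to 0.0505, without PBS 4) was lost in that way.

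The promoters of the 2 antiviral genes with the smallest p are shown because their group moved together and because interferon is known to act through a short motif. RefSeq promoter windows of 300 bases (250 before and 50 after the start site, GRCm38.p6) were on hand for 20 of the 25 members. The element was searched as GAAANNGAAA on both strands. It was present in 11 of the 20, and in 10 of the 18 called members among them, against 3.99% of 27018 genes with a window. Below, capitals mark the matches, which lie on the opposite strand of these windows; both genes are on the plus strand of chromosome 19.
Ifit3b, chr19:34607707-34608006: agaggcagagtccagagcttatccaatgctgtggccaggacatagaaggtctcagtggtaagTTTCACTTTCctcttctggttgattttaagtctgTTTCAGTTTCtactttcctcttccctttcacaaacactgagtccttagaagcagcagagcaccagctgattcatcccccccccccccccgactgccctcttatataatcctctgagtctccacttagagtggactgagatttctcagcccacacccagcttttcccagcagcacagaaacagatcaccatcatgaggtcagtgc
Ifit3, chr19:34583279-34583578: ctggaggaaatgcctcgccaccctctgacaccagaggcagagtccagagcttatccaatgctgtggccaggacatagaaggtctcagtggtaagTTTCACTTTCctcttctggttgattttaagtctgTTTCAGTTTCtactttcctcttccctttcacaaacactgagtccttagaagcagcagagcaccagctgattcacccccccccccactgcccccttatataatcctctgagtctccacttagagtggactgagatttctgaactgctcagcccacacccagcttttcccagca
Each window holds 2 matches, and the windows share an unbroken run of 169 bases. Of the next genes by p, Mx1 has no window in the table, and Ifit2 holds no match in its window. A match of letters is a description and not a shown binding site.

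**Figure D1:**
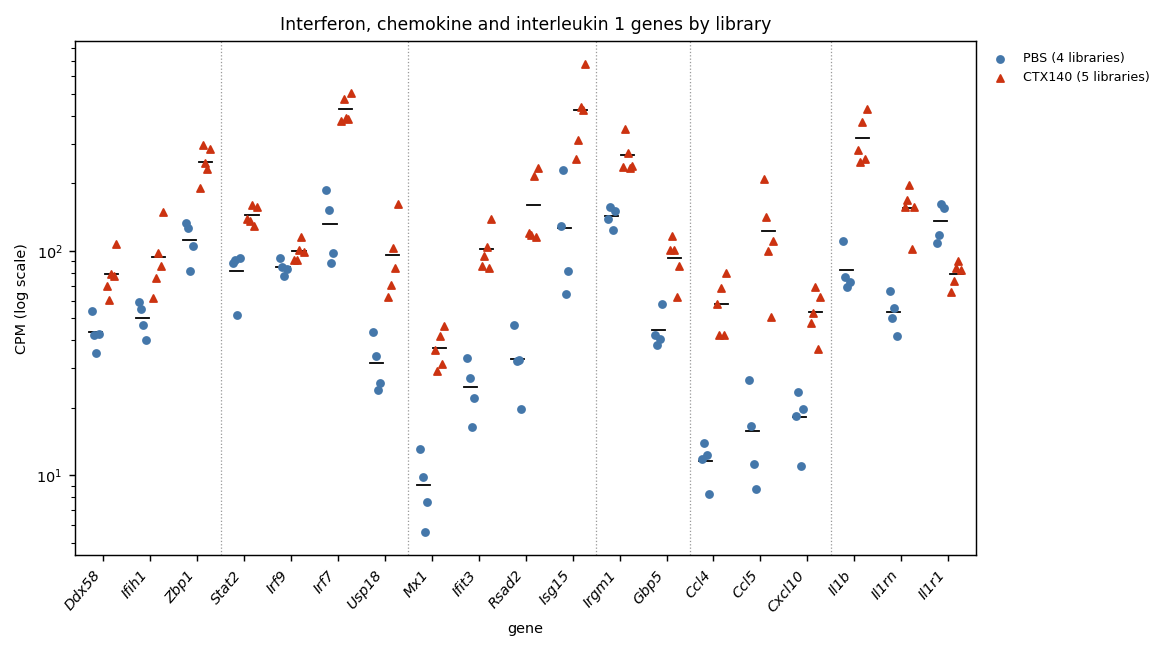
CPM (log scale) of interferon, chemokine and interleukin 1 genes in the 4 PBS libraries (circles) and the 5 CTX140 libraries (triangles); horizontal bars are group means and dotted lines separate sensors, transducers, effectors, GTPases, chemokines and interleukin 1 genes. Mx1 and Ifit3 separate cleanly, Irf9 overlaps between the groups, and Il1r1 lies lower in CTX140.

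Genes of the interferon gamma GTPase families, which attack vacuoles inside cells, rose too. Of 18 tested, 11 were called higher and 0 lower (median 0.74). Irgm1 stood at 139, 157, 124 and 151 CPM in PBS 1 to 4 and 236, 350.0, 274, 235 and 239 CPM in CTX140 1 to 5, without overlap (log2 fold change 0.91 ± 0.14, adjusted p = 0.000657); Igtp and Gbp5 rose by 1.06 ± 0.17 and 1.07 ± 0.17 (adjusted p = 0.000629 and 0.000784). In antigen presentation on class I 3 of 16 tested members were called higher and 1 lower (0 without PBS 2 or PBS 3 or PBS 4 or CTX140 1 or CTX140 3 or CTX140 5), against 11.1% and 10.1% of all genes. The lower one was the class I chain gene H2-Q4 (adjusted p up to 0.104, without PBS 2, PBS 3, PBS 4, CTX140 1, CTX140 2, CTX140 3, CTX140 5), of a family of near-copies. Among the higher ones, Psmb9 and Psmb10, subunits of the immunoproteasome that cuts peptides for class I, rose by 0.59 ± 0.15 and 0.73 ± 0.19 (adjusted p = 0.0121 and 0.0119). The heavy chain H2-K1 stood at 741 ± 124 CPM in PBS and 751 ± 21.2 CPM in CTX140 (log2 fold change 0.02 ± 0.14). Its light chain B2m stood at 3852 ± 687 CPM in PBS and 3296 ± 250.4 CPM in CTX140 (-0.23 ± 0.14). None of the 10 class II genes was called, with levels in CTX140 from 4.20 in CTX140 5 to 6.57 in CTX140 1 and in PBS from 4.33 to 5.88.

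Chemokines, the secreted attractants of leukocytes, rose in most members. The CXC family had 10 of 14 tested members called higher (median 1.90) and the CC family 9 of 15 (median 1.34); no member of either was called lower (1 without PBS 2 in the CXC family). Ccl4 (ENSMUSG00000018930, chromosome 11, 83662584 to 83664683 on mm10), which attracts monocytes, T cells and NK cells, stood at 11.8, 13.9, 12.3 and 8.24 CPM in PBS 1 to 4 and 58.2, 42.1, 68.4, 42.3 and 79.4 CPM in CTX140 1 to 5, a log2 fold change of 2.33 ± 0.24 (adjusted p = 4.11e-05). Its relative Ccl3 rose by 2.62 ± 0.34 (adjusted p = 0.00028). Ccl5 stood at 26.6, 16.7, 11.2 and 8.73 CPM in PBS 1 to 4 and 209, 142, 99.7, 50.8 and 111 CPM in CTX140 1 to 5, with no overlap (log2 fold change 2.95 ± 0.39, adjusted p = 0.000329). Ccl11, the eosinophil attractant eotaxin, rose by 3.32 ± 0.40 (adjusted p = 0.00017), with 4.01 to 5.59 CPM in PBS and 15.1 to 79.7 CPM in CTX140. Ccl8, a monocyte attractant, was the most abundant of those that rose by mean CPM in CTX140, at 134, 107, 121 and 51.3 CPM in PBS 1 to 4 and 887, 1570.2, 748, 331 and 439 CPM in CTX140 1 to 5 (log2 fold change 2.94 ± 0.49, adjusted p = 0.00131). Ccl17, a T cell attractant of dendritic cells, had the largest fold change of the rising genes above 10 CPM on average whose groups did not overlap, 6.20 ± 1.02 (adjusted p = 0.00122), with 0.663, 0.546, 0.28 and 0.275 CPM in PBS 1 to 4 and 109, 26.6, 18.2, 5.6 and 4.55 CPM in CTX140 1 to 5; CTX140 1 held far more than the next library. The call of Ccl6 (adjusted p up to 0.142, without PBS 2, PBS 4, CTX140 1, CTX140 2, CTX140 3) depended on the libraries.

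The CXC genes that rose included ligands of Cxcr4, Cxcr2 and Cxcr3. Cxcl13, Cxcl16 and Cx3cl1 of the same list, which bind Cxcr5, Cxcr6 and Cx3cr1, were not called (log2 fold changes 2.58 ± 1.05, 0.74 ± 0.27 and -0.44 ± 0.27). Cxcl14 was called higher, with groups that overlapped (log2 fold change 1.16 ± 0.28, adjusted p = 0.0100). Cxcl12, the ligand of Cxcr4 made by stromal cells, stood at 14.6, 4.03, 5.31 and 2.47 CPM in PBS 1 to 4 and 142, 238, 129.7, 65.4 and 38.7 CPM in CTX140 1 to 5, a log2 fold change of 4.21 ± 0.61 (adjusted p = 0.000567). Cxcl3 and Cxcl2, which attract neutrophils through Cxcr2, rose by 2.82 ± 0.34 and 2.10 ± 0.39 (adjusted p = 0.00017 and 0.00241). In Cxcl3 the treated libraries ran from 60.8 CPM in CTX140 2 to 221 in CTX140 5, all above the saline maximum of 24.9. The interferon-induced Cxcr3 ligands Cxcl10 and Cxcl11 rose by 1.56 ± 0.22 and 2.08 ± 0.34 (adjusted p = 0.000371 and 0.00112), whereas the third of them, Cxcl9, was not called at 128 ± 38.5 CPM in PBS and 224 ± 142 CPM in CTX140 (log2 fold change 0.81 ± 0.37, adjusted p = 0.136). Among 19 chemokine receptors 5 were called higher, including Ccr1 (0.80 ± 0.19), Cxcr2 (0.78 ± 0.18) and Cxcr6 (1.82 ± 0.41; adjusted p = 0.00689, 0.00634 and 0.00697). The 1 called lower was Cx3cr1, the fractalkine receptor of resident macrophages and patrolling monocytes, which stood at 32.2, 12.5, 17.4 and 27.2 CPM in PBS 1 to 4 and 9.23, 6.71, 2.7, 1.5 and 3.75 CPM in CTX140 1 to 5 (log2 fold change -2.22 ± 0.45, adjusted p = 0.00375).

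In the interleukin 1 family both the agonists and their natural antagonist rose, while the receptor fell. Of 19 tested genes 11 were called higher and 1 lower. Il1b stood at 111, 76.5, 69.1 and 72.6 CPM in PBS 1 to 4 and 281, 248, 376, 256 and 429.5 CPM in CTX140 1 to 5 (log2 fold change 1.95 ± 0.28, adjusted p = 0.000419) and Il1a rose by 2.18 ± 0.28 (adjusted p = 0.000165). Il1rn, which encodes the receptor antagonist, rose by 1.55 ± 0.21 (adjusted p = 0.000268), with 41.8 to 66.1 CPM in PBS and 102 to 196 CPM in CTX140. The signalling receptor gene Il1r1 (ENSMUSG00000026072, chromosome 1, 40225080 to 40317257 on mm10) stood at 109, 118, 162 and 155 CPM in PBS 1 to 4 and 65.4, 73.8, 84.2, 90.2 and 82.5 CPM in CTX140 1 to 5, all treated libraries below all saline ones (log2 fold change -0.78 ± 0.14, adjusted p = 0.00126). The interleukin 18 receptor chain Il18rap, the inflammatory caspase Casp4 and the inflammasome sensor Nlrp3 rose by 1.22 ± 0.18, 0.82 ± 0.17 and 1.13 ± 0.27 (adjusted p = 0.000483, 0.00307 and 0.00851). The strand setting of the counting is not stated, so reads of Il1b and of any antisense partner cannot be separated.

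Among growth factors of the myeloid line, Csf2, which encodes GM-CSF, was at 0 to 0.241 CPM in PBS and at 2.34, 1.13, 2.94, 4.99 and 6.69 CPM in CTX140 1 to 5 (log2 fold change 4.77 ± 0.67, adjusted p = 0.000315). Osm, oncostatin M, rose by 1.59 ± 0.23 (adjusted p = 0.000371) with no overlap. The calls of Csf3 (adjusted p up to 0.0892, without PBS 2, PBS 3, PBS 4, CTX140 4, CTX140 5) and Il6 (adjusted p up to 0.0959, without PBS 1, PBS 2, PBS 3, CTX140 3, CTX140 5) were lost with some libraries left out; Csf3, encoding G-CSF, stood at 88, 81.1, 59.3 and 94.8 CPM in PBS 1 to 4 and 73.5, 75.5, 199, 510.3 and 455 CPM in CTX140 1 to 5, so that CTX140 1 and CTX140 2 lay within the saline range. In the tumour necrosis factor family 12 of 20 tested genes were called higher and 0 lower (7 without PBS 3 or PBS 4). Tnfsf11, the osteoclast factor RANKL, stood at 0.964, 0.683, 1.82 and 1.76 CPM in PBS 1 to 4 and 8.03, 11.7, 6.07, 3.62 and 7.12 CPM in CTX140 1 to 5 (log2 fold change 2.48 ± 0.39, adjusted p = 0.000603), and Tnf itself rose by 1.64 ± 0.35 (adjusted p = 0.00474). Birc3 and Tnfaip3, targets and brakes of NF-kB, rose by 0.68 ± 0.12 and 0.53 ± 0.10 (adjusted p = 0.00136 and 0.00235); in Tnfaip3 the saline libraries spanned only 37.8 to 43.1 CPM and the treated ones 48.7 to 65.1.

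Acute phase and antimicrobial genes had 8 of 18 tested members called higher and 0 lower. Besides Hp, the serum amyloid gene Saa3 stood at 134, 68.1, 112 and 68.2 CPM in PBS 1 to 4 and 152, 593, 534, 666 and 498 CPM in CTX140 1 to 5, with CTX140 1 just above the saline maximum and the other 4 well above it (log2 fold change 2.35 ± 0.36, adjusted p = 0.000766). Orm1, orosomucoid, rose by 4.92 ± 0.72 (adjusted p = 0.000382) from at most 0.241 CPM to 1.78 to 6.65 CPM. Serpina3n, a serpin outside this list but named by its fold change, rose by 4.37 ± 0.49 (adjusted p = 0.00011). In the complement list 10 of 18 tested genes were called higher and 0 lower. They included both components and brakes: C3, the central component, rose by 1.75 ± 0.30 and C4b by 1.29 ± 0.31 (adjusted p = 0.00124 and 0.00978). Serping1, which encodes the C1 inhibitor, stood at 51.1, 29.9, 39.8 and 31 CPM in PBS 1 to 4 and 175, 415, 216, 166 and 133 CPM in CTX140 1 to 5 (log2 fold change 2.54 ± 0.29, adjusted p = 0.000118), and the brake on cell surfaces Cd55 rose by 2.79 ± 0.36 (adjusted p = 0.0002).

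Targets of p53 were called in part. The 4T1 line is generally described as lacking functional p53. Of the targets for cell cycle arrest and feedback 8 of 15 were called higher (3 without PBS 4, 4 without PBS 2, 5 without PBS 3 or CTX140 2 or CTX140 3) and 0 lower (1 without PBS 1 or CTX140 5, 2 without PBS 2). Of those for death 7 of 15 were called higher and 1 lower (0 without PBS 3, 2 without CTX140 4). Of the targets for repair, metabolism and secretion 3 of 15 were called higher (5 without PBS 2) and 1 lower (0 without PBS 3 or CTX140 3, 2 without CTX140 4). Their median log2 fold change was 0.08. Of all genes 11.1% were called higher and 10.1% lower, so the repair, metabolism and secretion counts are no result about that list. Cdkn1a (ENSMUSG00000023067, chromosome 17, 29090976 to 29100727 on mm10), encoding the kinase inhibitor p21, stood at 62.4, 48.3, 36.8 and 36.6 CPM in PBS 1 to 4 and 143, 181, 157, 117 and 124 CPM in CTX140 1 to 5, with no overlap and a log2 fold change of 1.65 ± 0.19 (adjusted p = 6.79e-05). Sesn2, a stress sensor upstream of mTORC1, stood at 9.28, 9.15, 6.5 and 7.58 CPM in PBS 1 to 4 and 17.4, 17.1, 16.7, 20.7 and 20.3 CPM in CTX140 1 to 5 (log2 fold change 1.18 ± 0.14, adjusted p = 0.000105). The death receptor Fas stood at 7.9, 8.54, 10.2 and 9.94 CPM in PBS 1 to 4 and 23.8, 24.8, 28, 21.2 and 21.4 CPM in CTX140 1 to 5, with no overlap (log2 fold change 1.38 ± 0.14, adjusted p = 4.11e-05). Eda2r, another receptor of the p53 response, was at no more than 0.121 CPM in PBS and at 1.87 to 5.35 CPM in CTX140 (log2 fold change 5.53 ± 0.61, adjusted p = 6.41e-05). Phlda3 and Aen rose by 1.13 ± 0.19 and 0.61 ± 0.12 (adjusted p = 0.00102 and 0.00304).

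Other known p53 targets were not called. Mdm2, the ligase that degrades p53, stood at 65.3, 66.6, 59.5 and 66.6 CPM in PBS 1 to 4 and 73, 87.9, 77.4, 79.8 and 70.6 CPM in CTX140 1 to 5; the groups did not overlap, yet its adjusted p was 0.0529 (log2 fold change 0.27 ± 0.09). Gadd45a and Bbc3, which encodes PUMA, stood at 249 ± 121 CPM in PBS and 153 ± 46.4 CPM in CTX140 and at 11.5 ± 0.762 CPM in PBS and 13.4 ± 4.92 CPM in CTX140 (log2 fold changes -0.70 ± 0.28 and 0.23 ± 0.21). The arrest genes Btg2 (adjusted p up to 0.0874, without PBS 2, PBS 3, PBS 4), Ccng1 (adjusted p up to 0.116, without PBS 1, PBS 2, PBS 3, PBS 4, CTX140 1, CTX140 2, CTX140 3) and Plk2 (adjusted p up to 0.0669, without PBS 1, PBS 4) and the death gene Bax (adjusted p up to 0.0774, without PBS 1, PBS 3, PBS 4) were calls that a library could undo. In Ccng1, CTX140 1 and CTX140 2 held 213 and 231 CPM while CTX140 4 and CTX140 5 lay within the saline range of 61.3 to 93.6 CPM.

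Among senescence genes and cell cycle inhibitors 2 of 16 members were called higher and 3 lower. Of all genes 11.1% were called higher and 10.1% lower, so these counts are no result about the list. Cdkn1c rose by 2.08 ± 0.40 (adjusted p = 0.00239), with 0.419 to 1.08 CPM in PBS and 1.66 to 5.62 CPM in CTX140. Cdkn1b, which encodes p27, stood at 89, 93.5, 109.6 and 90.9 CPM in PBS 1 to 4 and 60.9, 52, 63.8, 57.9 and 51.7 CPM in CTX140 1 to 5 and fell by 0.74 ± 0.11 (adjusted p = 0.000371), and Cdkn2c, which encodes p18, fell by 0.63 ± 0.13 (adjusted p = 0.0042); neither overlapped. Ccne1, the cyclin of S phase entry, rose, with 6.15 to 9.84 CPM in PBS and 14.4 to 18 CPM in CTX140, a log2 fold change of 1.13 ± 0.15 (adjusted p = 0.000266). Genes of division held few calls: 0 of 25 mitosis genes were called higher (1 without CTX140 1, 2 without PBS 2) and 1 lower (0 without PBS 2 or PBS 3 or PBS 4 or CTX140 1 or CTX140 2 or CTX140 3, 2 without CTX140 5). The lower one was the proliferation marker Mki67 (adjusted p up to 0.154, without PBS 2, PBS 3, PBS 4, CTX140 1, CTX140 2, CTX140 3), at 189.5, 296, 256 and 342 CPM in PBS 1 to 4 and 188, 156, 194, 219 and 231 CPM in CTX140 1 to 5. Of 25 replication genes 4 were called higher (0 without PBS 3, 1 without PBS 4, 2 without CTX140 3 or CTX140 5, 7 without PBS 2), against 11.1% of all genes. Top2a stood at 427 ± 38.3 CPM in PBS and 464 ± 92.8 CPM in CTX140 (log2 fold change 0.12 ± 0.14).

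Repair genes for DNA crosslinks had a list median of -0.02 and 2 of 23 called higher and 3 lower. With a library left out these were 1 to 3 and 1 to 3. Of all genes 11.1% were called higher and 10.1% lower, so these counts are no result about the list. Mgmt, which removes alkyl groups from guanine, rose, with 0.839 to 2.29 CPM in PBS and 3.07 to 9.98 CPM in CTX140 (log2 fold change 2.26 ± 0.38, adjusted p = 0.00102). Rev3l, the catalytic part of a translesion polymerase, fell by 0.59 ± 0.14 (adjusted p = 0.00908). Fancd2, the hub of crosslink repair, stood at 9.56 ± 2.23 CPM in PBS and 10.4 ± 1.56 CPM in CTX140 (log2 fold change 0.12 ± 0.17) and was not called. The checkpoint kinase genes Atm, Atr and Chek1 had log2 fold changes of 0.19 ± 0.17, -0.02 ± 0.18 and 0.13 ± 0.16, also not called. In the cell death machinery Bcl2l11, the killer BIM, fell by 0.60 ± 0.14 (adjusted p = 0.00799). This list of 23 genes held 4 calls higher (0 without PBS 3 or PBS 4, 1 without CTX140 2, 2 without PBS 1 or PBS 2 or CTX140 1 or CTX140 3) and 3 lower (5 without PBS 2 or CTX140 1). Against the same shares of all genes, these counts are no result about the list either.

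Genes of cholesterol synthesis fell at most enzymatic steps. Cells make cholesterol from acetyl-CoA through mevalonate, squalene and lanosterol, and the factor SREBP2 turns these genes on when sterol in the endoplasmic reticulum is low. Of 8 tested genes of the early steps 4 were called lower, and of 12 of the late steps 10; none was called higher, and the medians were -0.78 and -0.72. Hmgcs1 (ENSMUSG00000093930, chromosome 13, 119690379 to 119708260 on mm10), which makes HMG-CoA, stood at 77, 76.4, 66.6 and 92.9 CPM in PBS 1 to 4 and 37.3, 33.8, 36.1, 29.5 and 32.9 CPM in CTX140 1 to 5 (log2 fold change -1.21 ± 0.14, adjusted p = 0.000109). Idi1, which isomerises isopentenyl diphosphate, fell by 1.91 ± 0.27 (adjusted p = 0.000371). Fdft1 and Sqle, which make squalene and its epoxide, had log2 fold changes of -1.07 ± 0.17 and -1.25 ± 0.18 (adjusted p = 0.000765 and 0.000371).

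Past lanosterol, Cyp51 (ENSMUSG00000001467, chromosome 5, 4081145 to 4104746 on mm10), the lanosterol demethylase, stood at 52.6, 57.7, 40.0 and 72.9 CPM in PBS 1 to 4 and 20.1, 16.5, 17.7, 16.6 and 16 CPM in CTX140 1 to 5. Every treated library lay below every saline one, and the log2 fold change was -1.68 ± 0.19 (adjusted p = 6.48e-05). Msmo1, a methyl sterol oxidase, fell by 1.25 ± 0.18 (adjusted p = 0.000367). Sc5d and Lss had log2 fold changes of -0.65 ± 0.16 and -0.70 ± 0.18 (adjusted p = 0.00913 and 0.0128). Calls lost with a library left out were Dhcr7 (adjusted p up to 0.0554, without PBS 1, PBS 4), Hsd17b7 (adjusted p up to 0.116, without PBS 1, PBS 2, PBS 3, PBS 4, CTX140 1, CTX140 2, CTX140 3) and Nsdhl (adjusted p up to 0.112, without PBS 1, PBS 2, PBS 3, PBS 4, CTX140 3, CTX140 4, CTX140 5). With 1 library left out, 7 to 10 late genes and 4 to 5 early genes were called lower.

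Of 12 regulators and uptake genes 5 were called lower and 0 higher. Insig1, a sterol-induced anchor that holds the SREBP escort in the endoplasmic reticulum and is itself an SREBP target, stood at 39.3, 41.5, 52 and 47 CPM in PBS 1 to 4 and 17, 15.6, 14.1, 12.2 and 14.7 CPM in CTX140 1 to 5 (log2 fold change -1.61 ± 0.17, adjusted p = 4.84e-05). Srebf2, which encodes SREBP2, fell by 1.08 ± 0.15 and the sterol carrier Stard4 fell by 1.34 ± 0.18 (adjusted p = 0.000367 and 0.000223). On the disposal side 3 of 13 genes were called higher (5 without CTX140 4 or CTX140 5), against 11.1% of all genes. Cyp7b1, an oxysterol hydroxylase, rose by 2.96 ± 0.43 and the apolipoprotein Apoc1 by 4.28 ± 0.55 (adjusted p = 0.000371 and 0.000203). Abca1, the cholesterol exporter, stood at 55.3, 22.4, 81.3 and 47.7 CPM in PBS 1 to 4 and 160.0, 309, 105, 60.7 and 52 CPM in CTX140 1 to 5 and was not called (log2 fold change 1.41 ± 0.49, adjusted p = 0.056).

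Promoter windows were on hand for 15 of the 20 tested synthesis genes. They are shown for the lowest p values, since SREBP2 is known to act through a sterol regulatory element, searched here as TCACNCCAC on both strands. It was present in 1 of the 15, Hmgcs1, against 1.44% of the 27018 genes. Capitals mark that match.
Hmgcs1, chr13:119690101-119690400, plus strand: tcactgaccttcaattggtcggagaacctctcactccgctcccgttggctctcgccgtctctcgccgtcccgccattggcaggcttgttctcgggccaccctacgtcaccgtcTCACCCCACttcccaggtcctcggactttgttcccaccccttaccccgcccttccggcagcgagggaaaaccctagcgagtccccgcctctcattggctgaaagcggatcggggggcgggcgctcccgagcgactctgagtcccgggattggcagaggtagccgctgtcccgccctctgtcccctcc
Cyp51, chr5:4104648-4104947, minus strand: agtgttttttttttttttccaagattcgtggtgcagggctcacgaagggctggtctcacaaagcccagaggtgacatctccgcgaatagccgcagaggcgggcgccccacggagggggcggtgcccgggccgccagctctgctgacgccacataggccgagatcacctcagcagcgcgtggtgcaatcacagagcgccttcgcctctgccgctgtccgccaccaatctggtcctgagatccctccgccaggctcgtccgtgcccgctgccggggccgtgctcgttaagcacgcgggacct
Cyp51, with the larger fall, holds no match to this spelling in its window. Other spellings of the element were not searched, so a window without a match may still hold one.

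**Figure D2:**
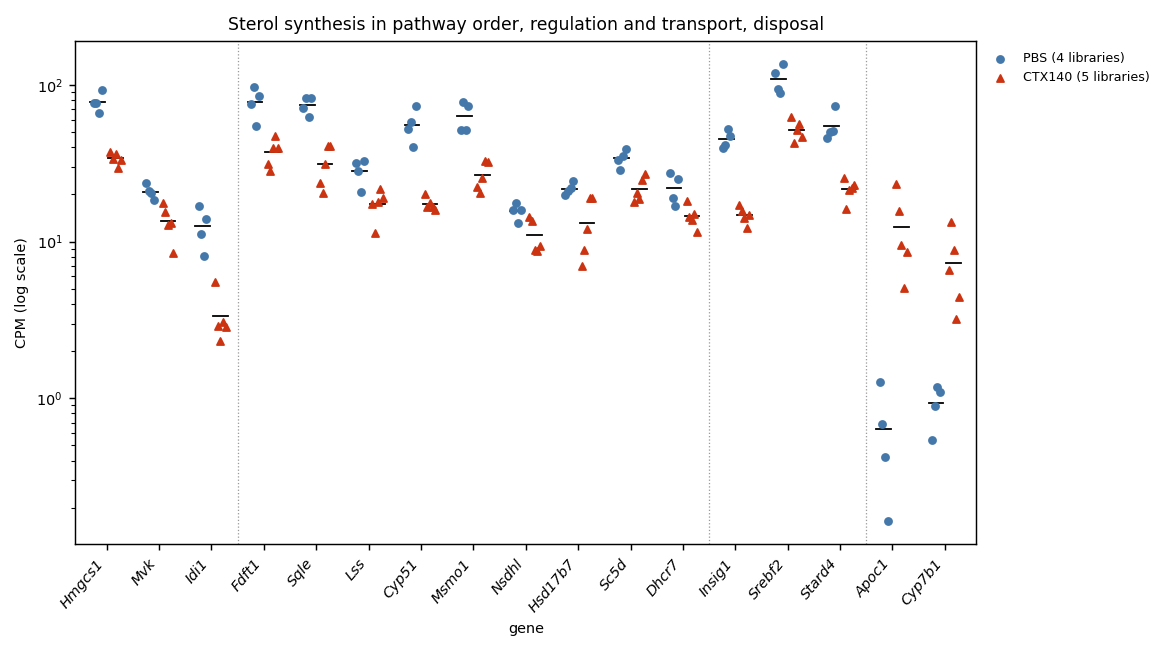
CPM (log scale) of sterol genes in the 4 PBS libraries (circles) and the 5 CTX140 libraries (triangles), with group means as bars, ordered as early steps, late steps, regulation and transport, and disposal. The treated group means lie lower for the synthesis, regulation and transport genes shown, while Apoc1 and Cyp7b1 lie higher.

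Fatty acid genes were called in both directions. Of 18 tested, 8 were called lower (5 without PBS 3) and 4 higher (2 without PBS 1 or PBS 2 or PBS 3 or PBS 4 or CTX140 1). The desaturases of polyunsaturated fatty acids Fads2 and Fads1 had log2 fold changes of -1.49 ± 0.27 and -0.77 ± 0.18 (adjusted p = 0.00172 and 0.00781); Fads2 stood at 21, 9.36, 16.3 and 22.1 CPM in PBS 1 to 4 and 7.07, 4.75, 5.89, 6.56 and 6.42 CPM in CTX140 1 to 5. Scd2, a stearoyl-CoA desaturase, Elovl6, an elongase, and Acsl3, an acyl-CoA ligase of lipid droplets, had log2 fold changes of -0.91 ± 0.21, -0.81 ± 0.17 and -1.09 ± 0.21 (adjusted p = 0.00802, 0.00372 and 0.00227). Acsl1, an acyl-CoA ligase abundant in fat, rose by 1.04 ± 0.24 (adjusted p = 0.00663). Scd1 stood at 101, 83.1, 121 and 104 CPM in PBS 1 to 4 and 801, 346, 198, 146 and 105 CPM in CTX140 1 to 5; calls lost with a library left out were Scd1 (adjusted p up to 0.0912, without PBS 1, PBS 2, PBS 3, PBS 4, CTX140 1, CTX140 2) and that of the lipogenic factor Thrsp (adjusted p up to 0.0525, without PBS 4). Both were highest in CTX140 1, the library with the highest adipocyte level.

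Families known to handle the drug's intermediates held calls in both directions. Among 26 genes of glutathione and oxidant defence 8 were called higher and 1 lower (2 without CTX140 1). The transferase Gstt1 stood at 2.29, 1.43, 0.978 and 1.15 CPM in PBS 1 to 4 and 17.4, 14.4, 8.71, 6.01 and 6.16 CPM in CTX140 1 to 5 (log2 fold change 2.84 ± 0.37, adjusted p = 0.000182), and Gstm1, of a family of near-copies, rose by 1.34 ± 0.23 (adjusted p = 0.00107). Mgst1, a membrane-bound transferase, and Gpx3, a secreted peroxidase, rose by 1.00 ± 0.16 and 2.59 ± 0.34 (adjusted p = 0.000665 and 0.000329). Of 18 aldehyde dehydrogenases 5 were called higher (3 without CTX140 2) and 1 lower (2 without CTX140 2). Aldh1a1, the isoform best known for detoxifying the drug's aldehyde, was near the floor, at 0.663, 0.0683, 0.14 and 0.0549 CPM in PBS 1 to 4 and 2.58, 2.2, 0.736, 0.751 and 1.93 CPM in CTX140 1 to 5 (log2 fold change 2.77 ± 0.71, adjusted p = 0.012). Aldh1a2, which makes retinoic acid, rose by 2.90 ± 0.42 (adjusted p = 0.000372). The list's most abundant member, Aldh2, stood at 280.5 ± 30.3 CPM in PBS and 238 ± 28.7 CPM in CTX140 (not called), and Aldh3a2, which oxidises fatty aldehydes, fell by 0.57 ± 0.14 (adjusted p = 0.0085). The call of Aldh3a1 (adjusted p up to 0.0628, without PBS 2, CTX140 2, CTX140 3) was lost with a library left out. The drug pump gene Abcb1a was not called, at 6.54 ± 1.33 CPM in PBS and 8.07 ± 2.89 CPM in CTX140.

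Among collagens 8 of 21 were called higher and 2 lower. Col3a1 (ENSMUSG00000026043, chromosome 1, 45311538 to 45349706 on mm10), a fibrillar collagen of loose connective tissue, stood at 259, 324, 182 and 353 CPM in PBS 1 to 4 and 1108, 2791, 1595, 1701 and 973 CPM in CTX140 1 to 5, a log2 fold change of 2.55 ± 0.32 (adjusted p = 0.000216). The collagen I chains Col1a2 and Col1a1 rose by 1.98 ± 0.32 and 1.81 ± 0.37 (adjusted p = 0.000867 and 0.00417). Col18a1, a collagen of basement membranes, stood at 375, 329.7, 294 and 456 CPM in PBS 1 to 4 and 166, 187, 241, 235 and 289 CPM in CTX140 1 to 5 and fell by 0.70 ± 0.16 (adjusted p = 0.00615), and Col16a1 fell by 0.46 ± 0.12 (adjusted p = 0.0146). CTX140 2 held the highest value of all 9 libraries for each of the 3 interstitial chains.

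Of 16 elastic fibre genes, 10 were called higher and 3 lower. Efemp1, a fibulin, stood at 1.93, 0.478, 0.559 and 0.165 CPM in PBS 1 to 4 and 23.8, 32.9, 32.7, 33.5 and 12.3 CPM in CTX140 1 to 5, with no overlap (log2 fold change 5.09 ± 0.58, adjusted p = 0.000123). The fibrillin Fbn1 and the microfibril proteins Mfap5 and Mfap4 rose by 2.64 ± 0.36, 1.88 ± 0.24 and 3.05 ± 0.47 (adjusted p = 0.00038, 0.00018 and 0.000691). Ltbp4 and Ltbp1, which tether latent TGF-beta to those microfibrils, had log2 fold changes of -1.35 ± 0.20 and -1.05 ± 0.19 (adjusted p = 0.000407 and 0.00155), each with all treated libraries below all saline ones. Tgfb3, a TGF-beta ligand, stood at 73.2, 46, 96.5 and 83.1 CPM in PBS 1 to 4 and 33.9, 33.6, 28.5, 26.7 and 24.1 CPM in CTX140 1 to 5 and fell by 1.35 ± 0.22 (adjusted p = 0.000784). The signal transducer Smad3 fell by 0.88 ± 0.17 (adjusted p = 0.00239). Yet of 21 genes of TGF-beta and BMP signalling 6 were called higher and 3 lower, with a median of 0.18. With 1 library left out these were 3 to 7 and 2 to 5. Inhba, an activin subunit of the same superfamily, rose by 0.74 ± 0.17 and its antagonist Fst by 1.28 ± 0.27 (adjusted p = 0.00785 and 0.00433). Of the small leucine-rich proteoglycans, which coat collagen fibrils, 7 of 8 were called higher; Podn, Dcn and Bgn rose by 3.26 ± 0.40, 1.92 ± 0.26 and 1.73 ± 0.31 (adjusted p = 0.000118, 0.000329 and 0.00211).

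Of 16 genes of collagen processing and crosslinking 6 were called higher and 1 lower, and of 19 matrix proteases and inhibitors 6 higher and 1 lower (2 without PBS 2 or CTX140 1). Lox, the lysyl oxidase that crosslinks collagen and elastin, stood at 45.6, 29.9, 23.5 and 31.4 CPM in PBS 1 to 4 and 88.4, 212, 142, 161 and 82.1 CPM in CTX140 1 to 5 (log2 fold change 2.07 ± 0.28, adjusted p = 0.000329), and Loxl1 and Loxl2 rose by 1.80 ± 0.26 and 1.64 ± 0.24 (adjusted p = 0.000457 and 0.000407). Bmp1, the protease that trims procollagen, fell by 0.71 ± 0.14 (adjusted p = 0.0033), while Adamts2, another procollagen protease, rose by 1.69 ± 0.28 (adjusted p = 0.000958). Adamts5, an aggrecanase, stood at 2.05, 1.71, 0.489 and 1.43 CPM in PBS 1 to 4 and 25.4, 25.7, 20.1, 29.9 and 13.3 CPM in CTX140 1 to 5; the groups were far apart (log2 fold change 3.99 ± 0.39, adjusted p = 3.86e-05). The gelatinase Mmp2 rose by 2.19 ± 0.33 and the inhibitor Timp1 by 0.90 ± 0.14 (adjusted p = 0.000749 and 0.000519). Mmp11 fell by 0.92 ± 0.17 (adjusted p = 0.00207).

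Genes of mineralised matrix fell in part. Of 11 tested, 6 were called lower and 0 higher, and the count stayed at 6 with any library left out. Spp1, osteopontin, stood at 4974, 4029.9, 11031 and 5826 CPM in PBS 1 to 4 and 2701, 2676, 2761, 3649.8 and 3233 CPM in CTX140 1 to 5 (log2 fold change -1.11 ± 0.23, adjusted p = 0.0033). Ibsp, bone sialoprotein, stood at 28.6, 20.2, 12.2 and 67.1 CPM in PBS 1 to 4 and 4.55, 2.91, 3.99, 11.3 and 5.3 CPM in CTX140 1 to 5 and fell by 2.52 ± 0.44 (adjusted p = 0.00172). Npnt, an integrin ligand of basement membranes, fell by 1.79 ± 0.24, the growth factor Bmp7 fell by 1.60 ± 0.29 and the osteoblast factor Runx2 fell by 0.53 ± 0.13 (adjusted p = 0.000242, 0.00149 and 0.0111). PBS 3 held the highest Spp1 value of the 9 libraries and PBS 4 the highest Ibsp value.

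Among integrins, the receptors for these matrices, 8 of 18 were called lower and 3 higher, though the lower count was 3 without PBS 3, 4 without PBS 4, 5 without CTX140 2. Itga6 and Itgb4, the pair that anchors epithelial cells to laminin, had log2 fold changes of -0.52 ± 0.09 and -0.89 ± 0.19 (adjusted p = 0.0015 and 0.0046). Itga6 stood at 104, 94.5, 103 and 112 CPM in PBS 1 to 4 and 70.3, 64.6, 69.8, 77.7 and 76.8 CPM in CTX140 1 to 5. Itgav fell by 0.67 ± 0.15 (adjusted p = 0.00637), and Itgb1 (adjusted p up to 0.0642, without PBS 3) was called lower, at 521, 503, 814 and 625 CPM in PBS 1 to 4 and 319, 444, 389, 493 and 363 CPM in CTX140 1 to 5. The leukocyte integrin Itgb7 went the other way, at 61.3, 62.3, 41.1 and 45 CPM in PBS 1 to 4 and 180.2, 138, 113, 89.7 and 89.9 CPM in CTX140 1 to 5 (log2 fold change 1.22 ± 0.19, adjusted p = 0.000702).

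**Figure D3:**
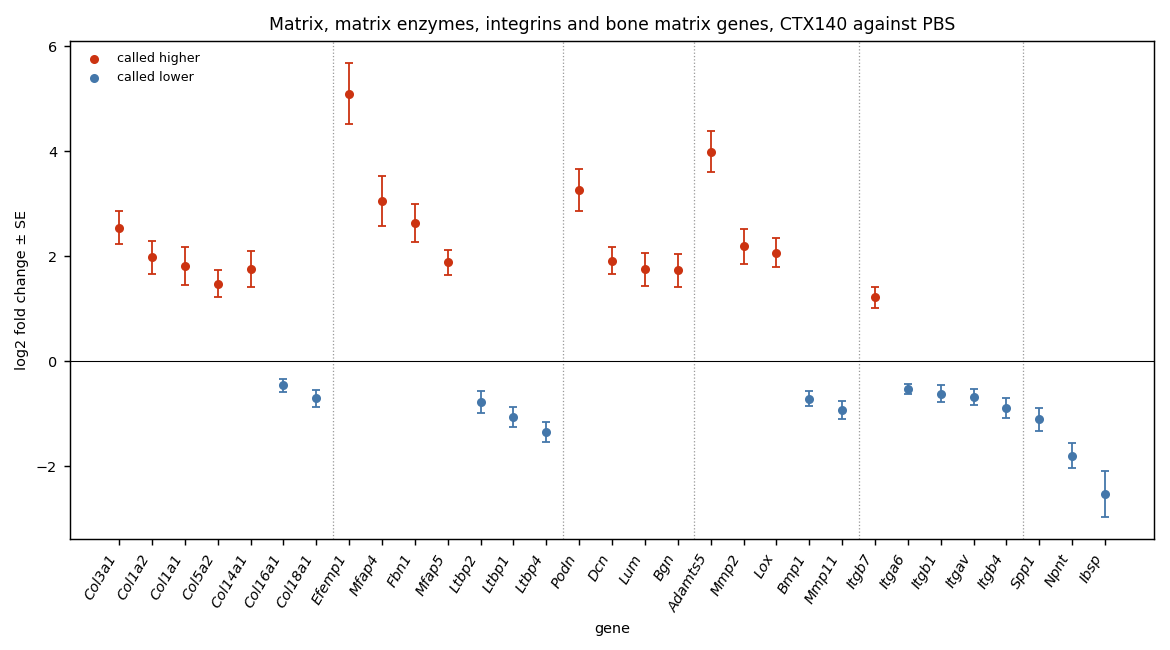
Log2 fold changes (CTX140 minus PBS) with SE bars for matrix genes (collagens, elastic fibres, proteoglycans), matrix enzymes, integrins and bone matrix genes; red was called higher and blue lower. Interstitial matrix genes lie above 0, and Ltbp genes, most integrins shown and bone matrix genes lie below.

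Fibroblast and adipocyte markers rose in most members. Of 14 fibroblast markers 11 were called higher and 0 lower (1 without PBS 2). Pi16 and Dpt, which mark the reserve fibroblasts of normal tissue, rose by 3.17 ± 0.45 and 4.44 ± 0.58 (adjusted p = 0.000532 and 0.000329), and Fap, a marker of activated fibroblasts, rose by 1.39 ± 0.26 (adjusted p = 0.00218). Dpt stood at 6.33, 2.32, 1.26 and 1.81 CPM in PBS 1 to 4 and 87.5, 84.2, 71.5, 56.9 and 20.6 CPM in CTX140 1 to 5, with CTX140 5 the lowest treated library. The smooth muscle actin Acta2 rose by 1.64 ± 0.25 (adjusted p = 0.000578). Adipocyte markers had 9 of 13 members called higher and 0 lower, 9 without overlap, with a median of 2.42. Adipoq, the hormone adiponectin, stood at 0.964, 1.02, 0.629 and 0.11 CPM in PBS 1 to 4 and 31.5, 16.3, 12, 8.4 and 6.69 CPM in CTX140 1 to 5 (log2 fold change 4.46 ± 0.71, adjusted p = 0.000948), and Car3, an enzyme abundant in fat, rose by 5.27 ± 0.96 (adjusted p = 0.00255). The adipocyte level was 2.43, 2.03, 2.07 and 0.76 in PBS 1 to 4 and 5.67, 4.85, 4.19, 3.46 and 3.39 in CTX140 1 to 5, so it was highest in CTX140 1 and lowest among treated libraries in CTX140 5. The part of the adipocyte level in the other results was not tested. Among blood endothelial markers 1 of 15 was called higher (0 without PBS 2 or PBS 3 or PBS 4 or CTX140 1, 2 without CTX140 4, 3 without CTX140 5, 4 without PBS 1), Vwf (adjusted p up to 0.0837, without PBS 2, PBS 3, PBS 4, CTX140 1). Pecam1 stood at 43.5, 9.36, 22.6 and 16 CPM in PBS 1 to 4 and 102, 61.1, 48.9, 27.1 and 18.9 CPM in CTX140 1 to 5 and was not called.

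Epithelial genes did not move together. Krt8 and Krt18 were not called (log2 fold changes -0.06 ± 0.14 and -0.17 ± 0.16). In contrast 10 of 16 members of the carcinoma epithelium list were called higher, among them the basal keratins Krt14 and Krt5 and the adhesion gene Epcam (3.41 ± 0.66, 4.79 ± 0.95 and 3.85 ± 0.79, with adjusted p = 0.00291, 0.00355 and 0.00449). Krt7, Cldn3, Cldn4 and Elf3 were not called either. In PBS, Krt5 and Krt14 averaged only 0.305 and 0.720 CPM, whereas Cdh1, also called higher, averaged 11.3 CPM. The list's name does not say which cells the rising transcripts came from, and that was not tested. Epcam stood at 2.77, 0.546, 1.75 and 0.549 CPM in PBS 1 to 4 and 61.9, 9.98, 9.32, 12.6 and 7.55 CPM in CTX140 1 to 5, highest in CTX140 1. Krt19 followed the same order among treated libraries, at 6.03, 5.74, 1.89 and 1.54 CPM in PBS 1 to 4 and 125, 28.1, 26.4, 31.6 and 13.8 CPM in CTX140 1 to 5. Mammary hormone genes had 6 of 12 called higher (3 without PBS 3 or PBS 4) and 1 lower (2 without PBS 1). The progesterone receptor gene Pgr was at 0 in 3 saline libraries and 0.137 CPM in PBS 2, and at 8.93, 1.07, 0.736, 0.410 and 1.02 CPM in CTX140 1 to 5. Cited1, a transcriptional cofactor of the mammary ducts, stood at 1.45, 0.273, 0 and 0 CPM in PBS 1 to 4 and 64.3, 8.02, 8.71, 6.9 and 5.62 CPM in CTX140 1 to 5. Erbb2, the receptor HER2, fell by 0.53 ± 0.12 (adjusted p = 0.00511), at 32.7 to 36 CPM in PBS and 19.7 to 26.7 CPM in CTX140. The levels of the epithelial, hormone, adipocyte, T cell and B cell lists were all highest in CTX140 1, and their part in one another was not tested.

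Factors of mesenchymal transition moved both ways. Foxc2 stood at 30.3, 22.5, 28.2 and 31.5 CPM in PBS 1 to 4 and 12.2, 12.5, 14.4, 17.3 and 16.9 CPM in CTX140 1 to 5 and fell by 0.94 ± 0.14 (adjusted p = 0.000542), and Tcf4 fell by 0.94 ± 0.16 (adjusted p = 0.00126). Snai2, a repressor of epithelial genes, rose by 2.50 ± 0.53 (adjusted p = 0.00405), with 0.28 to 0.604 CPM in PBS and 0.888 to 4.37 CPM in CTX140. Fibronectin, Fn1 (adjusted p up to 0.0822, without PBS 3), was called lower, at 3239, 1894, 5990.1 and 3522 CPM in PBS 1 to 4 and 1455, 1559, 2025, 2406 and 1994 CPM in CTX140 1 to 5; PBS 2 lay within the treated range.

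Of 16 mature neutrophil markers 6 were called higher; Clec4d, a lectin receptor, and Wfdc17 rose by 1.28 ± 0.23 and 1.35 ± 0.30 (adjusted p = 0.00175 and 0.006). The abundant S100a8 and S100a9 were not called, at 358 ± 153 CPM in PBS and 429.9 ± 215 CPM in CTX140 and 642 ± 225 CPM in PBS and 754 ± 349 CPM in CTX140. The level of this list was 5.36, 5.47, 5.35 and 5.00 in PBS 1 to 4 and 5.05, 5.27, 5.84, 6.35 and 5.94 in CTX140 1 to 5, highest in CTX140 4 and within the PBS range in CTX140 1 and CTX140 2. Granulocyte precursors had 8 of 12 called higher (5 without PBS 4). Cebpe, the factor of granule formation, was at 0.301, 0.273, 0.14 and 0.22 CPM in PBS 1 to 4 and 2.28, 2.97, 1.84, 1.3 and 1.87 CPM in CTX140 1 to 5 (log2 fold change 3.09 ± 0.38, adjusted p = 0.000118). The granule protease Ctsg was at 1.02, 0.546, 0.349 and 0.0549 CPM in PBS 1 to 4 and 3.71, 6.83, 4.97, 3.89 and 5.41 CPM in CTX140 1 to 5 (3.32 ± 0.50, adjusted p = 0.000476). Mast cell markers had 7 of 10 called higher, with Cpa3, their carboxypeptidase, at 0.663, 0.751, 0.559 and 0.11 CPM in PBS 1 to 4 and 8.39, 5.11, 3.8, 2.32 and 1.34 CPM in CTX140 1 to 5 (3.01 ± 0.61, adjusted p = 0.00334). Tpsab1, a tryptase with a near-copy in Tpsb2, rose by 3.46 ± 0.55 (adjusted p = 0.000889).

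Tumour macrophage markers had 1 of 19 called higher (0 without PBS 1 or PBS 2 or PBS 3 or PBS 4 or CTX140 1 or CTX140 2 or CTX140 3, 3 without CTX140 4 or CTX140 5) and 1 lower. The lower one was Cx3cr1. The higher one was Cd68 (adjusted p up to 0.136, without PBS 1, PBS 2, PBS 3, PBS 4, CTX140 1, CTX140 2, CTX140 3). Adgre1, which encodes F4/80, stood at 31, 13.5, 25.4 and 17.2 CPM in PBS 1 to 4 and 28.3, 112, 18.6, 9.43 and 9.15 CPM in CTX140 1 to 5, with CTX140 2 at the top. Genes of macrophage activation had 7 of 19 called higher and 1 lower (0 without PBS 3). Cd80, a costimulator of T cells, Acod1, which makes itaconate, and Hcar2, a metabolite receptor, rose by 1.62 ± 0.25, 1.43 ± 0.29 and 1.71 ± 0.33 (adjusted p = 0.000554, 0.00366 and 0.00291). Of 13 monocyte markers 4 were called higher (2 without PBS 4) and 1 lower (0 without PBS 3). Their median log2 fold change was 0.04, and the list levels of the groups overlapped. Among the higher ones, Plac8 stood at 63.8, 42.2, 22.5 and 22.5 CPM in PBS 1 to 4 and 122, 264, 153, 90.9 and 105 CPM in CTX140 1 to 5 (log2 fold change 1.96 ± 0.37, adjusted p = 0.00291), and Vcan rose by 1.28 ± 0.29 (adjusted p = 0.00704). Dendritic cell markers had 6 of 16 called higher (2 without PBS 3 or PBS 4). Ccl17, Irf8 and Bst2 are among the 6 and were also counted in the chemokine, interferon transducer and antiviral lists. Their level was 3.32, 2.75, 2.29 and 2.26 in PBS 1 to 4 and 4.77, 3.91, 3.46, 3.00 and 2.94 in CTX140 1 to 5.

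Granzyme genes of killer cells rose. Gzmb stood at 22.5, 27.9, 19.5 and 22.7 CPM in PBS 1 to 4 and 32.7, 54.2, 45.5, 57.2 and 41.9 CPM in CTX140 1 to 5, without overlap (log2 fold change 1.00 ± 0.18, adjusted p = 0.00179), and Gzmc rose by 1.23 ± 0.27 (adjusted p = 0.00534). The pore protein Prf1 rose by 0.83 ± 0.21 and the NK receptor Klrd1 by 1.87 ± 0.44 (adjusted p = 0.0133 and 0.00878). Of 16 cytotoxic genes 7 were called higher (11 without CTX140 4). Of 19 T cell markers 8 were called higher, 0 of them without overlap, and the count was 0 without PBS 2 or PBS 3 or PBS 4, 2 without CTX140 1, 3 without CTX140 2. The antigen receptor chain gene Cd3g (adjusted p up to 0.0862, without PBS 2, PBS 3, PBS 4) stood at 17.7, 12, 9.5 and 10.0 CPM in PBS 1 to 4 and 117, 40.7, 23.9, 19.1 and 16.2 CPM in CTX140 1 to 5. The T cell level was 3.32, 2.35, 1.99 and 2.02 in PBS 1 to 4 and 5.96, 3.92, 3.07, 2.54 and 2.47 in CTX140 1 to 5. None of the 9 B cell markers was called (1 higher without PBS 1); Ighm, the IgM heavy chain, stood at 61.2, 14.3, 10.3 and 10.2 CPM in PBS 1 to 4 and 142, 13.1, 8.04, 1.5 and 14 CPM in CTX140 1 to 5, high in PBS 1 and CTX140 1.

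Genes that restrain T cells rose in part. Of 14 checkpoint genes 8 were called higher and 1 lower. Cd274 (ENSMUSG00000016496, chromosome 19, 29367455 to 29388095 on mm10), encoding PD-L1, stood at 68, 73.9, 79 and 67.2 CPM in PBS 1 to 4 and 151, 163, 208, 139 and 193 CPM in CTX140 1 to 5, without overlap (log2 fold change 1.24 ± 0.22, adjusted p = 0.00147), and Pdcd1lg2, PD-L2, rose by 2.33 ± 0.48 (adjusted p = 0.00426). Ido1, which depletes tryptophan, stood at 2.71, 2.94, 2.52 and 6.32 CPM in PBS 1 to 4 and 17, 14.6, 15.3, 11.5 and 10.3 CPM in CTX140 1 to 5 (log2 fold change 1.91 ± 0.27, adjusted p = 0.000329). The enzymes that turn extracellular ATP to adenosine moved apart: Entpd1, CD39, rose by 0.94 ± 0.17 and Nt5e, CD73, fell by 1.03 ± 0.24 (adjusted p = 0.00136 and 0.00887).

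Ribosomal and glycolytic genes held few or no calls, against 21.3% over all genes. None of 24 ribosomal protein genes was called (4 higher without PBS 2). Of 24 genes of glycolysis and hypoxia 1 was called higher and 1 lower (0 without PBS 3 or CTX140 2, 3 without CTX140 4). Of those, the lactate exporter Slc16a3 rose by 0.63 ± 0.15 (adjusted p = 0.00696), and Ldha was not called, at 2167 ± 279 CPM in PBS and 2007 ± 460.3 CPM in CTX140. Of 24 nuclear genes of the respiratory chain 4 were called higher (1 without PBS 4, 2 without PBS 3, 10 without PBS 2) and 1 lower (0 without PBS 1 or PBS 3 or CTX140 1 or CTX140 3 or CTX140 4, 2 without CTX140 2). This is close to the share of all genes. Red cell and platelet genes had 3 of 9 called higher, the platelet chemokine Pf4 among them (2.21 ± 0.43, adjusted p = 0.00342). Pf4 and Ppbp, also called higher, were counted in the CXC family too. The haemoglobin gene Hbb-bs stood at 84, 93.4, 36.8 and 72.7 CPM in PBS 1 to 4 and 2.7, 3.15, 1.72, 20.1 and 125 CPM in CTX140 1 to 5 and was not called; 5 members of the list were called lower when CTX140 5 was left out.

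**Figure D4:**
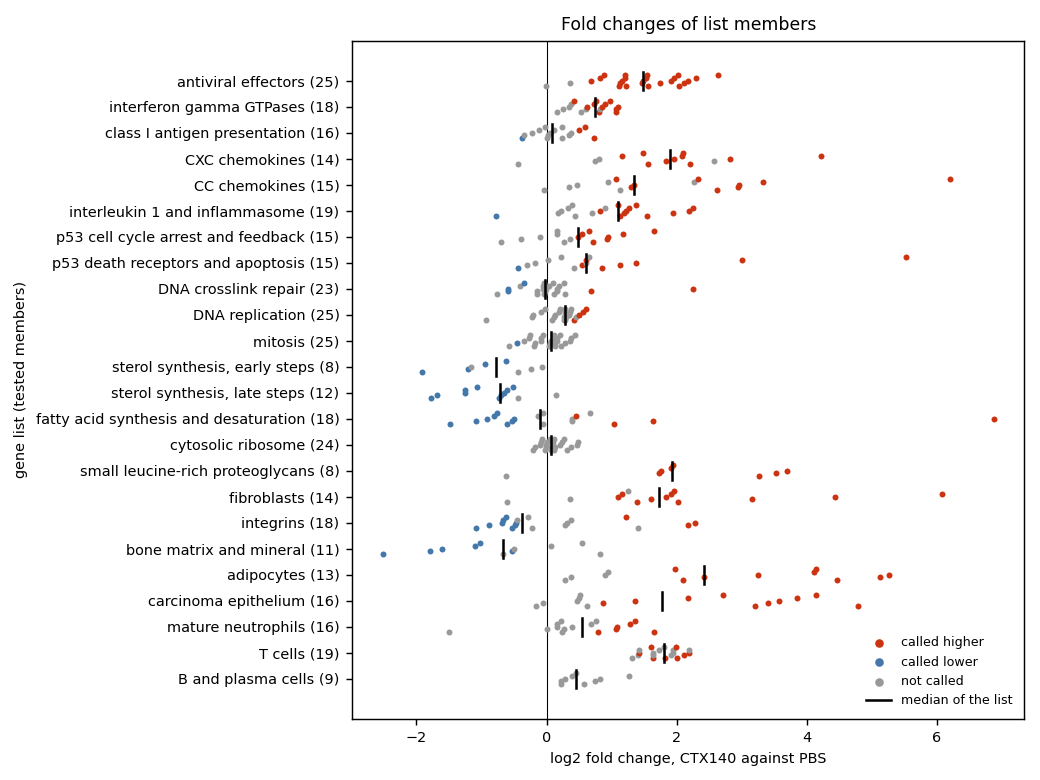
Log2 fold changes of the tested members of 24 gene lists (number tested in parentheses); each dot is a gene, coloured by its call, and the black bar is the list median. Most antiviral and chemokine genes lie to the right, most sterol synthesis genes to the left, and ribosomal genes around 0.

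**Figure D5:**
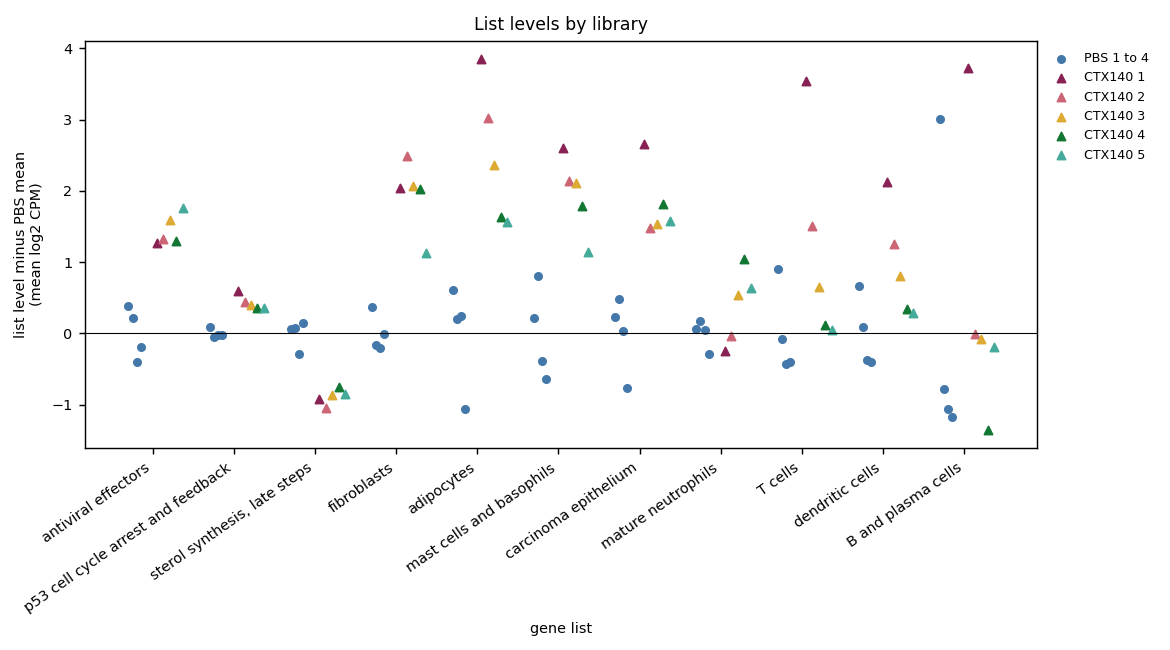
List level in each library minus the mean of the 4 PBS libraries (mean log2 CPM of the tested members); circles are PBS and coloured triangles CTX140 1 to 5. The 5 treated libraries lie close together for antiviral, p53 and sterol genes and spread widely for adipocyte, T cell, dendritic cell and B cell genes, with CTX140 1 at the top of those 4.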

How the data were processed

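Whole-tumour RNA was sequenced on an Illumina platform, per the labels' protocols. The deposited count table holds raw read counts per gene, not normalised by the authors. The authors also deposited FPKM values of the same libraries. The build mm10 and the tool DESeq2 are named, without a role, per the submitters' processing notes; which aligner, counter or strand setting was used is not given in the sources used. Coordinates, gene identifiers and symbols are those of the count table.

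Counts were tested with edgeR 4.0.16 (R 4.3.3): filterByExpr by group (15360 genes kept of 54532, those left out holding 0.141% of counts), TMM factors, robust quasi-likelihood test, two-sided, Benjamini-Hochberg adjustment over all genes tested. All 14 libraries entered the filter, the scaling and the fit, with no covariate. Calls required an adjusted p below 0.05. SE is the log2 fold change divided by the square root of F. List levels used a prior count of 2. On simulated counts (15167 genes) the test found 20.4, 51.0, 75.5 and 84% of those altered 1.5-, 2-, 3- and 4-fold, and 5 of its 119 calls were false. Only 49 or 50 genes were altered at each size, and genes varied independently, with no outlying library. The false share there is thus no error rate for the calls reported here.

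Genes to name were, of called protein-coding genes averaging 10 CPM or more without overlap of the groups, the 12 highest and 12 lowest fold changes; the 12 smallest p; and, in each of 75 lists, the 2 called members with the smallest p and the most abundant member. Not all of these are described, and some are not reported here; other list members are given as values; Ptprc belongs to no list and serves as a check. Members and lists were chosen with earlier results of these data known. Of 1222 listed symbols 41 stand in more than 1 list, so a call can be counted more than once. Alternatives were RLE and upper quartile factors, other filters, the 9 libraries alone, DESeq2 1.42.0, limma 3.58.1 on log2(FPKM + 1), a threshold on fold change, a replicate block and leaving out each library. Promoters are RefSeq's on GRCm38.p6, the build of mm10.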

Additional observations from a re-analysis of the deposited data

Results flagged for a closer look

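In 48 of 586 groups of values examined, 1 library lay farther from the nearest other library of its group than Dixon's 95% critical value. That value flags about 1 in 20 groups when values are normal and independent. The groups here share the same libraries, and many hold CPM without a log, so that rate cannot be set against the 48. CTX140 1 was the flagged library in 24 cases, PBS 1 and PBS 3 in 5 each, CTX140 2 in 4, PBS 2 and CTX140 5 in 3 each, and PBS 4 and CTX140 4 in 2 each. CTX140 1 was the highest library of its group for Ccl17 at 109 CPM, Cited1 at 64.3 CPM, Ptn at 219 CPM, Trp53i11 at 111 CPM, Myh11 at 24.9 CPM and Sox10 at 6.53 CPM. The same library was also highest for Krt19 at 125 CPM, Pgr at 8.93 CPM, Abca8a at 4.25 CPM, Cd3g at 117 CPM, Cd8b1 at 65.4 CPM and Vwf at 27 CPM. The same library was also highest for Ear2 at 13.2 CPM, mt-Nd6 at 1440 CPM, Trbc2 at 163 CPM, Ighm at 142 CPM, Mbp at 51.3 CPM and Alox15 at 11.3 CPM. CTX140 1 was the lowest library of its group for Thbs1 at 140 CPM. CTX140 2 was the highest library of its group for Acta2 at 102 CPM and Aldh2 at 288 CPM. CTX140 2 was the lowest library of its group for Krt8 at 692 CPM and Gata3 at 31.1 CPM. CTX140 4 was the highest library of its group for Ibsp at 11.3 CPM. CTX140 5 was the highest library of its group for Fgb at 61.2 CPM, Il1a at 19.9 CPM and Topbp1 at 118 CPM. PBS 1 was the highest library of its group for Ptn at 6.93 CPM, Fgb at 2.53 CPM, Vwf at 4.64 CPM and Ighm at 61.2 CPM. PBS 2 was the highest library of its group for Pgr at 0.137 CPM, Hspa8 at 4620 CPM and Bax at 151 CPM. PBS 3 was the highest library of its group for Reg3g at 0.14 CPM, Ccl11 at 5.59 CPM and Thbs1 at 498 CPM. PBS 3 was the lowest library of its group for Ifi209 at 7.2 CPM. PBS 4 was the highest library of its group for Ido1 at 6.32 CPM and Trp53bp1 at 47.6 CPM. In mean log2 CPM of a list, CTX140 1 was the highest of its group for DNA crosslink repair at 3.44, carcinoma epithelium at 4.74, mammary hormone and milk genes at 4.53 and B and plasma cells at 4.99. In mean log2 CPM of a list, CTX140 1 was the lowest of its group for cytosolic ribosome at 10.1. In mean log2 CPM of a list, CTX140 4 was the lowest of its group for interleukin 1 and inflammasome at 4.99. In mean log2 CPM of a list, PBS 1 was the highest of its group for B and plasma cells at 4.27. In mean log2 CPM of a list, PBS 3 was the lowest of its group for sterol synthesis, early steps at 3.87.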

How the results depend on the processing

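The number of genes called, 3268 (1711 higher, 1557 lower), stayed within 1.5 times under RLE factors, upper quartile factors, no filter, a stricter filter, DESeq2 and limma on FPKM. With only the 9 libraries in the fit it was 1878 (1019 higher, 859 lower), and tested against a log2 fold change of 1 it was 249 (242 higher, 7 lower). With a replicate block in the 9-library fit it was 1912, with 1175 higher and 737 lower. Same-numbered libraries correlated at 0.43, -0.19, -0.00 and 0.10 in their deviations from the group means, and only those numbered 1 and 4 correlated best with their own number. No label says what a number stands for, and these few correlations cannot decide whether the numbers pair the samples. Leaving out 1 library at a time gave 1975 to 3894 calls, 1039 to 1970 higher and 885 to 1924 lower, the low ends coming without PBS 3 or PBS 4. The difference in mitochondrial share ran from 0.352 to 1.77 percentage points, the lowest without CTX140 1. Over the 217 genes named by the rule, 3559 of the values under the alternatives kept direction and side of the threshold, 267 lost the call, 25 gained one and 49 changed sign. Those 49 belong to 14 genes that were called neither in the reported fit nor under the alternative that changed the sign. With the replicate block the log2 fold changes with changed sign were -0.14 for Slpi, -0.027 for S100a9, -0.0087 for Top2a and -0.015 for Pcna. Under the same block they were -0.060 for Thbs1, -0.35 for Ighm, -0.027 for Mbp, 0.12 for Tnni2 and -0.11 for Krt10. With no filter they were -0.010 for Atp5b, -0.022 for Thbs1, -0.014 for Mbp and -0.0029 for Krt10. With only the 9 libraries it was -0.0055 for Thbs1. With limma on FPKM they were -0.27 for Ighm, -0.040 for Mbp and 0.071 for Tnni2. With 1 library left out at a time the log2 fold change ran from -0.18 to 0.18 for Hspa8, -0.026 to 0.43 for Cd74, -0.19 to 0.28 for Slpi, -0.080 to 0.073 for Atp5b and -0.14 to 0.081 for Krt8. It ran from -0.020 to 0.25 for Pcna, -0.14 to 0.42 for Thbs1 and -0.070 to 0.30 for Gbp2. It ran from -1.38 to 1.60 for Ighm, -0.30 to 0.11 for Mbp, -0.26 to 0.44 for Tnni2 and -0.10 to 0.20 for Krt10. The causes were not tested. Depth limits genes near 0 in PBS, whose fitted fold changes depend on the prior count.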

Other observations

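Other signalling and stress genes gave the following values. Immediate early genes had 4 of 20 members called higher and 0 lower (1 without PBS 1 or CTX140 1): Egr1, a zinc finger factor induced by growth signals, stood at 15.6, 23.8, 26.3 and 24.3 CPM in PBS 1 to 4 and 40.2, 30.5, 40.9, 61 and 56.7 CPM in CTX140 1 to 5 (log2 fold change 1.03 ± 0.20, adjusted p = 0.00244), and Dusp5, a phosphatase that ends ERK signalling in the nucleus, rose by 1.01 ± 0.19 (adjusted p = 0.00238). Heat shock genes had 0 of 13 called higher and 3 lower (0 without PBS 4, 1 without CTX140 3 or CTX140 5). Against the shares of all genes, 11.1% higher and 10.1% lower, the immediate early and heat shock counts are no result about those lists. Unfolded protein and amino acid stress genes had 4 of 20 called higher and 1 lower, against 11.1% and 10.1% of all genes. With 1 library left out these were 2 to 7 and 0 to 3. The abundant Hspa5 was not called (log2 fold change -0.30). In the stress responses of the endoplasmic reticulum, Ddit3, the factor CHOP, rose by 0.94 ± 0.22 and Herpud1 by 0.65 ± 0.13 (adjusted p = 0.00878 and 0.00266). Chac1 (adjusted p up to 0.1, without PBS 1, PBS 3, PBS 4, CTX140 4, CTX140 5), a glutathione-degrading enzyme of that response, stood at 14.3, 27.1, 11.7 and 9.28 CPM in PBS 1 to 4 and 12, 20.1, 40.4, 122 and 102 CPM in CTX140 1 to 5, highest in CTX140 4 and CTX140 5 and within the saline range in CTX140 1 and CTX140 2.

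WNT and Notch genes had 8 of 22 members called higher and 1 lower (2 without PBS 2). The secreted WNT binders Sfrp1, Sfrp2 and Sfrp4 rose by 1.32 ± 0.25, 3.47 ± 0.52 and 5.30 ± 0.97 (adjusted p = 0.00239, 0.000702 and 0.00231); Sfrp2 stood at 2.35, 3.62, 1.12 and 1.7 CPM in PBS 1 to 4 and 17, 30.7, 25.9, 36.7 and 11.9 CPM in CTX140 1 to 5, without overlap. The Notch target Hes1 fell by 0.56 ± 0.14 (adjusted p = 0.0104). Hey1 of the same list went the other way, rising by 1.43 ± 0.49 with an adjusted p just under the threshold (0.0472). Notch1 and Notch2 were not called. Among angiogenic factors the lymphatic growth factors Vegfc and Vegfd rose by 1.78 ± 0.25 and 2.81 ± 0.37 (adjusted p = 0.000319 and 0.000221). Vegfc stood at 1.57, 1.43, 1.54 and 1.54 CPM in PBS 1 to 4 and 5.21, 6.77, 3.68, 5.67 and 4.76 CPM in CTX140 1 to 5, and Vegfa, the main blood vessel factor, was not called at 69.2 ± 9.47 CPM in PBS and 78.2 ± 17.5 CPM in CTX140. Igf1 rose by 2.06 ± 0.41 (adjusted p = 0.00373), with 26.4 to 48.9 CPM in CTX140 1 to 3 and 13.9 and 14.0 CPM in CTX140 4 and 5. The nucleoside carrier Slc29a1 fell by 0.50 ± 0.11 and the cationic amino acid carrier Slc7a2 rose by 2.16 ± 0.47 (adjusted p = 0.00462 and 0.00586).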
